A study of Mus musculus with 6 samples.

Results

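Whole kidneys of mice 8 weeks old were compared between R26NICD2/+pax8cre animals, here NICD2_Pax8 (3 libraries), and animals labelled wild type, here WT (3 libraries). R26NICD2 is an allele at the Rosa26 locus for the intracellular domain of Notch2, and by its label Pax8-Cre, active along the tubule epithelium, switches it on, although a Pax-rtTA driver is named in the title of the series. The WT library titles begin with NICD, so it is not settled here whether these animals carried the allele without a driver. The 93 genes described here stood at 5 FPKM (fragments per kilobase of transcript, scaled to library size) or more in each NICD2_Pax8 library and under 1 FPKM in each WT library, out of 23873 rows of which 19503 had values. Predicted genes (names that start with Gm and digits or end in Rik) and rows named as gene models of the authors' own were left out. Among the 93 genes kept, 30 include transcript models of the authors' own, which may add to their FPKM. Because these same values chose the genes, the difference between the groups is a description and was given no test for them.

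Notch receptors are cut when a neighbouring cell presents a ligand, and the freed intracellular domain joins the DNA-binding protein RBPJ to switch on genes such as the Hes and Hey repressors. In the kidney this signal patterns the nephron before birth, is low in the resting adult tubule, and returns in injured tubules. Genes near 0 in the adult kidney include those of other tissues, of immune cells that are rare there, and of dividing cells.

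**Figure D1:**
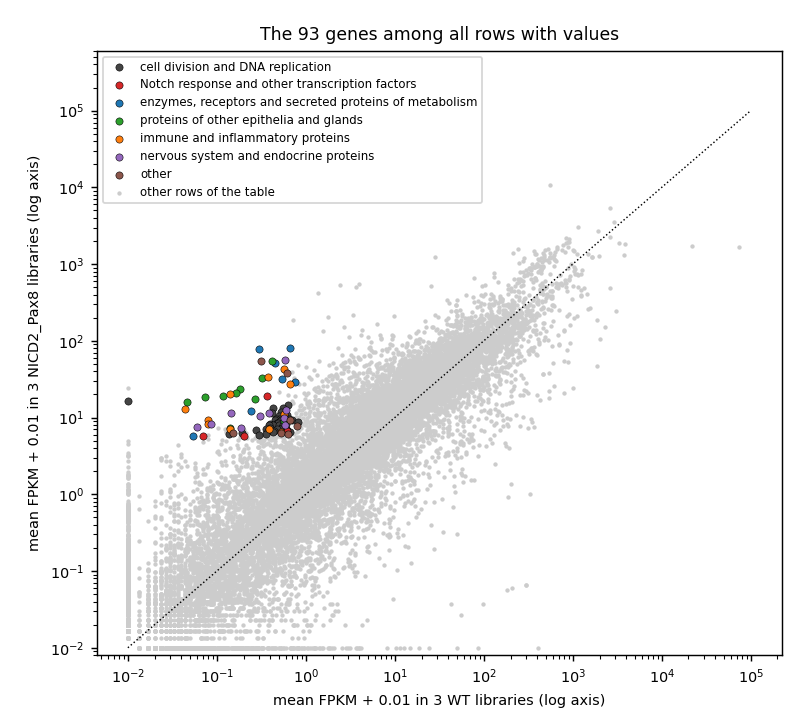
Each point is a row of the table, with mean FPKM + 0.01 in the 3 NICD2_Pax8 libraries on the vertical log axis and in the 3 WT libraries on the horizontal log axis, and the 93 genes are coloured by role. The genes lie above the dotted line of equality in the range under 1 FPKM in WT, where most grey rows stay under 1 FPKM in both groups.

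Few rows made this move. Of 5769 rows under 1 FPKM in all WT libraries, 547 stood at 1 FPKM or more in all NICD2_Pax8 libraries, 94 at 5 FPKM or more, and 4759 (82.5%) stayed under 1 FPKM in all NICD2_Pax8 libraries. The reverse rule, 5 FPKM or more in each WT library and under 1 FPKM in each NICD2_Pax8 library, found 12 genes. "Silent" is too strong a word for most of the 93. Only H2ac23 was listed at 0 in all WT libraries, 80 had a value above 0 in all 3, and 28 were under 0.5 FPKM in all 3. With a depth estimated at 14750000 to 17600000 fragments per library, 82 of the 93 rested on at least 10 estimated fragments over the WT libraries together, with a median of 59.1. Folds of mean FPKM are given below only for such genes. In whole kidney, a transcript of few cells at a high level and of many cells at a low level cannot be told apart.

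WT replicate 1 stood apart in markers of adrenal gland and fat, with 8 adrenal markers summing to 4701 FPKM there and to at most 3.47 FPKM elsewhere. The labels do not say whether the libraries came from separate animals, so tests measure the spread between these samples only, which may be technical. WT replicate 2 held the most transcripts of urothelium, the lining of the renal pelvis and bladder, among the WT libraries. Upk3a, a uroplakin, had 1.89, 4.55 and 0.65 FPKM in the NICD2_Pax8 libraries in order of replicate number, against 0.07, 3.91 and 0 FPKM in the WT libraries in the same order, which all lists of values below follow. The kidney label held: 8 defining kidney markers summed to 1197 to 2055 FPKM in NICD2_Pax8 and 3289 to 4995 FPKM in WT libraries, and none was at 0. Umod carried most of the NICD2_Pax8 sums, at 964, 1463 and 1611 FPKM, against 658.1, 1498 and 1198 FPKM in WT. The other 7 markers were lower in NICD2_Pax8, such as Slc34a1 with means of 149.9 FPKM in NICD2_Pax8 and 2329 FPKM in WT. A row named NOTCH2 in capitals, which no source used here explains, stood at 500.5, 521 and 570 FPKM in NICD2_Pax8, against 2.13, 3.75 and 1.27 FPKM in WT. The row of mouse Notch2 averaged 12.8 ± 0.625 FPKM in NICD2_Pax8 and 5.08 ± 0.771 FPKM in WT (SD, n = 3 each).

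Of 13500 genes tested over both groups with limma, 6095 (45.1%) were higher in NICD2_Pax8 at a Benjamini-Hochberg adjusted p under 0.05 and 2190 (16.2%) were lower. All 93 genes were among those higher, which follows from the rule that chose them. Their log2 fold changes on log2(FPKM + 1) ran from 2.13 to 5.96 with a median of 2.81, where the median of all genes tested was 0.32. Since the rule holds all WT values under 1 FPKM, these sizes depend on the number added before the logarithm (the pseudocount). With 0.1 in place of 1 they ran from 3.12 to 8.25 (median 4.29, all genes 0.37). With 5 they ran from 0.98 to 3.95 (median 1.34, all genes 0.21). Median-of-ratios scaling, which equalises the middle of the libraries, moved the median of all genes to -0.0018 and that of the 93 to 2.61. In the authors' deposited table all 93 had a higher level in NICD2_Pax8 at a q under 0.05, where 21.3% of 19439 rows did, with deposited log2 fold changes of 2.87 to 7.07.

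**Figure D2:**
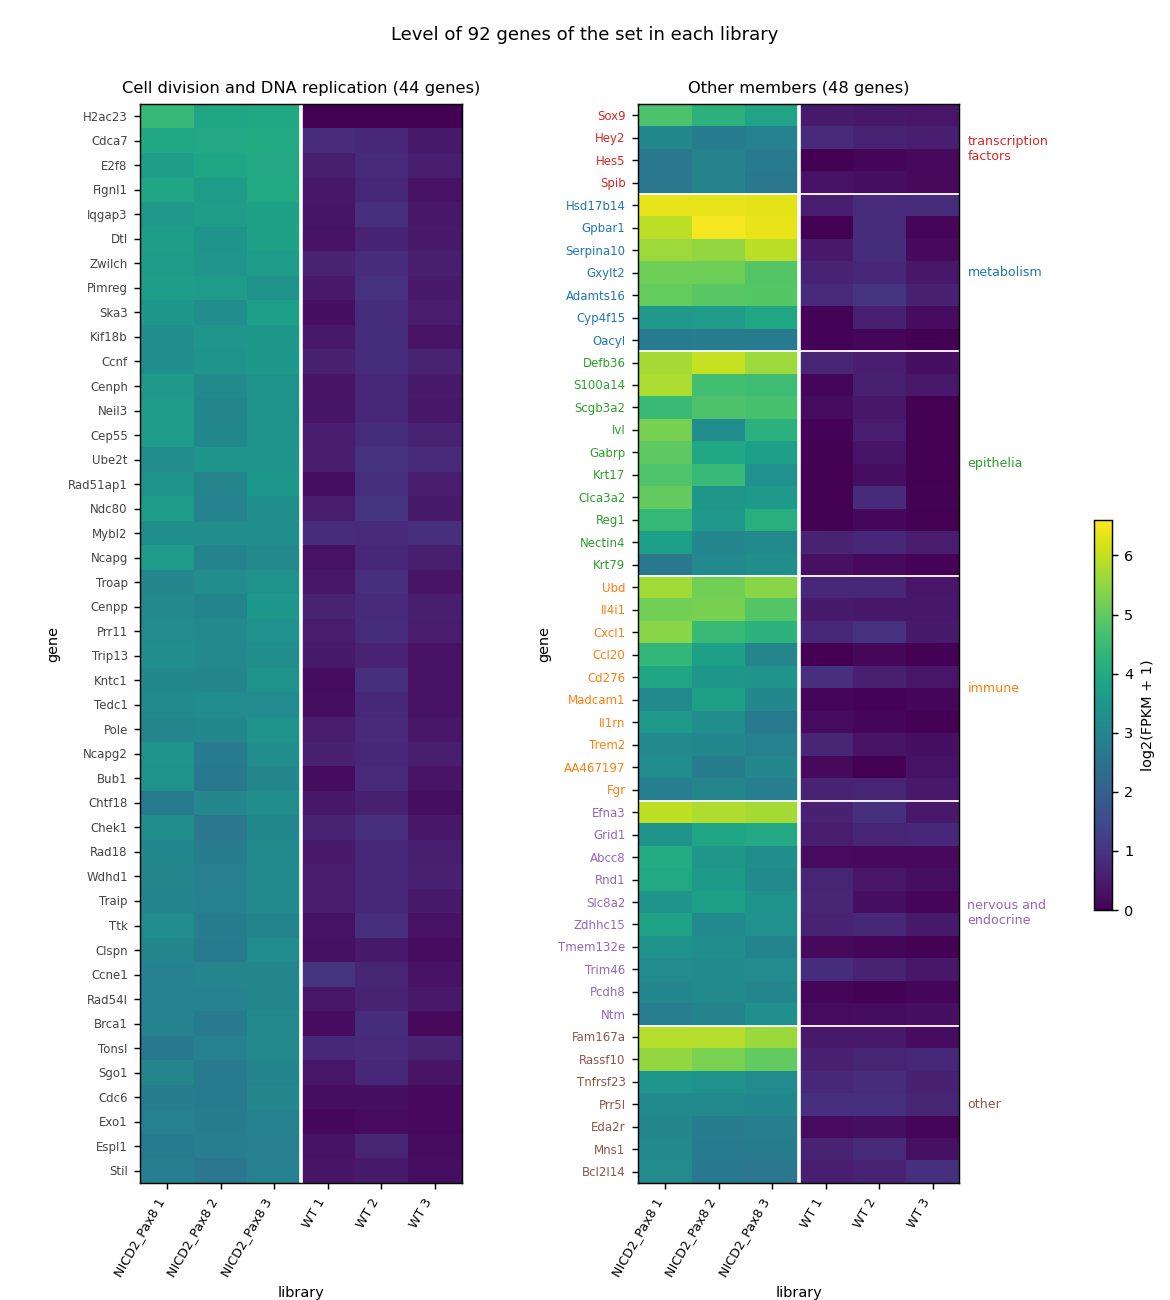
Rows are 92 of the 93 genes, columns the 3 NICD2_Pax8 and then the 3 WT libraries, and colour is log2(FPKM + 1). Genes of cell division are on the left and 48 others on the right, grouped by role, and the WT columns are dark throughout because the rule requires it.

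By usual role, assigned from general knowledge after the genes were known, 44 of the 93 (47.3%) serve cell division and DNA replication, 4 are transcription factors of the Notch response or of other lineages, 7 are metabolic enzymes, receptors or secreted factors, 10 are proteins of other epithelia and glands, 11 are immune or inflammatory, 10 are best known from the nervous system or endocrine cells, and 7 fitted no group. The table's own gene ontology column, which the rule did not use, gave the term cell cycle to 32 of the 93 (34.4%). Among all rows under 1 FPKM in WT it gave it to 4.06%, so that 32 of 234 such rows reached 5 FPKM. For immune response the shares were 8.6% of the 93 and 5.91% of the rows under 1 FPKM in WT. For nervous system development they were 14% and 9.74%, and for extracellular region 14% and 13.5%. Unlike the 93, the rows under 1 FPKM in WT include predicted genes and rows named as gene models of the authors' own. The shares were not computed without those rows, so how far they moved the comparison was not tested.

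Transcription factors come first because Hes5 and Hey2 are direct readouts of the pathway. Hes5, a repressor of neural and other progenitors, had 5.23, 6.79 and 5.47 FPKM in NICD2_Pax8, against 0, 0.06 and 0.12 FPKM in WT. Hey2, a repressor of arteries and the heart, stood at 7.47, 5.96 and 6.44 FPKM in NICD2_Pax8 and at 0.77, 0.57 and 0.47 FPKM in WT, an 11-fold ratio of means. Both levels were low beside that of Heyl, a relative that is not among the 93 and averaged 203.8 FPKM in NICD2_Pax8 and 1.78 FPKM in WT. Sox9, a regulator of cartilage, testis and duct progenitors that also marks injured tubule cells, stood at 25.6, 17.9 and 13.4 FPKM in NICD2_Pax8 and at 0.38, 0.35 and 0.33 FPKM in WT. The WT values of Sox9 lay close together, while NICD2_Pax8 replicate 1 held 1.91 times the level of replicate 3. Spib, an ETS factor of B cells, plasmacytoid dendritic cells and intestinal M cells, stood at 5.28, 6.74 and 5.24 FPKM in NICD2_Pax8 and at 0.26, 0.18 and 0.13 FPKM in WT.

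The promoters of Hes5 and Hey2 are shown because the letters GTGGGAA, an RBPJ motif, stand in both. Each is the 250 bases before the RefSeq start on GRCm38.p6, with GTGGGAA or its reverse complement in capitals. For Hes5 this is chr4:154960673-154960922 on the plus strand, with 1 copy on each strand. For Hey2 it is chr10:30842784-30843033 on the minus strand. A second copy in Hey2 begins 4 bases before the start and runs across it, so it is not in capitals.
Hes5: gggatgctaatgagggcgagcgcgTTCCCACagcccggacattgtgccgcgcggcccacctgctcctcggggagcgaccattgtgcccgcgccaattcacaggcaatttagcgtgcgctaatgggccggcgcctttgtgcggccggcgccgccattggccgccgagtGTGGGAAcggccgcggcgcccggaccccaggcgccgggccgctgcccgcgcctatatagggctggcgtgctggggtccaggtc
Hey2: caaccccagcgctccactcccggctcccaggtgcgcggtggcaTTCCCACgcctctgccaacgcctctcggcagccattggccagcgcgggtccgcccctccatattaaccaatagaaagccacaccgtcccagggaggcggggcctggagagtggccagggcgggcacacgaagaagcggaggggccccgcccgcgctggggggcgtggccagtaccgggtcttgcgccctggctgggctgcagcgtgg

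Over the set, 74 of the 93 genes had a RefSeq promoter window (250 bases before to 50 after the start), and a gene was counted when any of its windows held the letters on either strand. GTGGGAA stood in 10 of these 74 (13.5%) and in 7.25% of the 27025 genes of the promoter table. The copies were uneven between the groups of genes: 7 of the 35 outside cell division (20%) and 3 of the 39 in cell division (7.69%). The shorter core TGGGAA, which GTGGGAA contains, stood in 17 of 35 (48.6%), 10 of 39 (25.6%) and 28.3% of all genes. The AP-1 letters TGANTCA stood in 6 of 35 (17.1%), 1 of 39 (2.56%) and 8.97% of all genes, and TATAAA in 7 of 35 (20%), 2 of 39 (5.13%) and 15.7%. These counts describe letters, not bound sites, and no test was made of them.

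**Figure D3:**
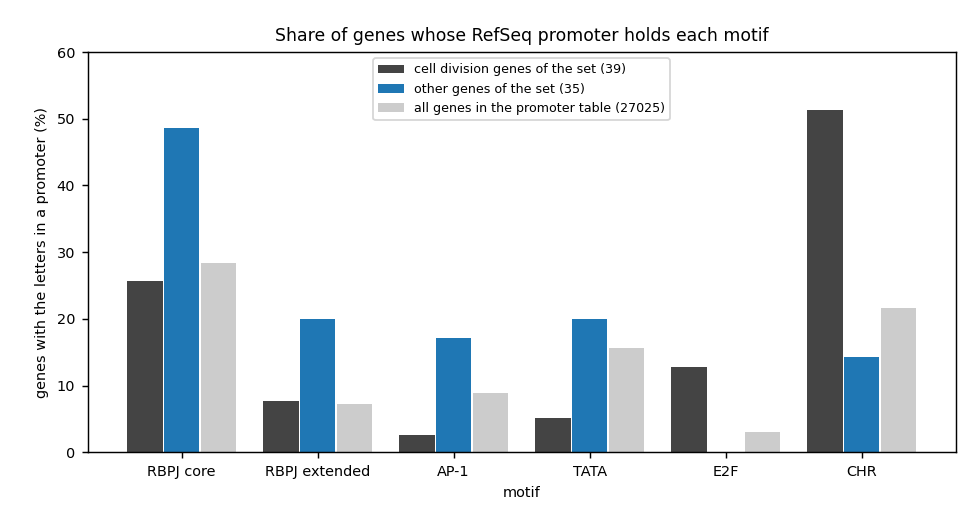
Bars give the percent of genes whose RefSeq promoter window holds each motif on either strand, for 39 genes of cell division, 35 other genes of the set and all 27025 genes of the table. The RBPJ bars are highest for the other genes (48.6% and 20%) and the CHR bar for the genes of cell division (51.3%).

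Cell division was the largest group. These genes are normally used in tissues that renew, such as bone marrow, thymus, intestinal crypts and testis, and in the embryo, while the adult kidney holds few dividing cells. Their mean FPKM in NICD2_Pax8 ran from 5.94 to 16.3 with a median of 8.19, and in WT the median of the means was 0.488. The most abundant, the histone gene H2ac23, stood at 20.4, 13.9 and 14.6 FPKM in NICD2_Pax8 and was listed at 0 in all WT libraries. Its mRNA belongs to a family of near-identical copies and usually lacks a poly(A) tail, so how the authors' counting shared its reads is uncertain. Cdca7, a cell division gene that Notch is known to induce in blood stem cells, stood at 14.2, 14.7 and 15.5 FPKM in NICD2_Pax8, against 0.80, 0.67 and 0.39 FPKM in WT. Its groups were each tight, and the ratio of means was 23.9-fold.

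The group covers most steps of the cycle. Among regulators of its start, E2f8, a repressor of the E2F family, averaged 13.5 ± 1.33 FPKM in NICD2_Pax8 and 0.547 ± 0.142 FPKM in WT, and Mybl2, an activator of mitotic genes, averaged 8.69 ± 0.146 FPKM in NICD2_Pax8 and 0.803 ± 0.0513 FPKM in WT (SD, n = 3 each). Cyclin E1 (Ccne1) stood at 6.58, 7.03 and 7.22 FPKM in NICD2_Pax8 and at 0.98, 0.60 and 0.25 FPKM in WT. Among replication genes, Cdc6, which loads the replicative helicase, had 6.28 ± 0.911 FPKM in NICD2_Pax8 and 0.18 ± 0.052 FPKM in WT, a ratio of 34.9. Pole, the catalytic subunit of a leading-strand polymerase, had 8.01 ± 1.22 FPKM in NICD2_Pax8 and 0.487 ± 0.215 FPKM in WT, and Dtl, which targets proteins for destruction in S phase, had 11.4 ± 1.59 FPKM in NICD2_Pax8 and 0.407 ± 0.166 FPKM in WT (SD, n = 3 each). Exo1, a repair nuclease, showed the largest ratio in the group, 48.6-fold, at 6.16 ± 0.34 FPKM in NICD2_Pax8 and 0.127 ± 0.0252 FPKM in WT.

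Checkpoint, kinetochore and cytokinesis genes filled the rest. The checkpoint kinases Chek1, Bub1 and Ttk averaged 7.11, 7.35 and 7.02 FPKM in NICD2_Pax8, against 0.597, 0.39 and 0.463 FPKM in WT. Ndc80, Ska3, Cenph, Cenpp, Zwilch and Kntc1 belong to the kinetochore, which ties chromosomes to the spindle, and averaged 8.05 to 10.9 FPKM in NICD2_Pax8 and 0.423 to 0.607 FPKM in WT. Subunits of the condensins, Ncapg and Ncapg2, averaged 8.6 and 7.93 FPKM in NICD2_Pax8, against 0.463 and 0.543 FPKM in WT. Separase (Espl1) averaged 6.02 FPKM in NICD2_Pax8 and 0.35 FPKM in WT. Cep55, which acts at the last step of cytokinesis, averaged 9.38 FPKM in NICD2_Pax8 and 0.61 FPKM in WT. The DNA repair genes Fignl1, Neil3, Ube2t, Rad51ap1, Rad18, Traip, Rad54l, Brca1 and Tonsl averaged 6.5 to 13.5 FPKM in NICD2_Pax8 and 0.367 to 0.697 FPKM in WT. Chtf18, Clspn and Wdhd1 serve the replication fork and averaged 6.98 to 7.19 FPKM in NICD2_Pax8 and 0.263 to 0.547 FPKM in WT. The other mitotic and centriole genes, Iqgap3, Pimreg, Kif18b, Troap, Prr11, Trip13, Tedc1, Sgo1 and Stil, averaged 5.94 to 11.7 FPKM in NICD2_Pax8 and 0.287 to 0.56 FPKM in WT. Whether the counting used strand is not given in the sources used here, and without it reads of opposite genes cannot be told apart. Ncapg, Rad54l and Cenpp share 13.4%, 15.4% and 12.3% of their exon bases in GENCODE M21 with Lcorl, Lrrc41 and Ippk on the other strand.

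Many genes of mitosis carry the letters TTTGAA or TTCGAA near their start, the cell cycle homology region (CHR) through which the DREAM complex holds them down in resting cells. Either form stood in 20 of the 39 genes of cell division with a promoter window (51.3%), 5 of the 35 others (14.3%) and 21.7% of all genes. Of the E2F letters TTTGGCGC and TTCCCGCC either stood in 5 of 39 (12.8%), 0 of 35 and 3.07% of all genes. The CHR and E2F letters were added to the search after the genes were known. For illustration, 60 bases before the RefSeq start (GRCm38.p6) of 4 mitotic genes are printed with the CHR letters in capitals: Ncapg (chr5:45669865-45669924, plus strand), Espl1 (chr15:102296233-102296292, plus), Ncapg2 (chr12:116405376-116405435, plus) and cyclin F (Ccnf, chr17:24251410-24251469, minus).
Ncapg: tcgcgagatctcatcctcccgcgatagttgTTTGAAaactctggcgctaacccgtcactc
Espl1: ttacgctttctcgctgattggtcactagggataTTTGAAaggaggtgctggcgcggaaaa
Ncapg2: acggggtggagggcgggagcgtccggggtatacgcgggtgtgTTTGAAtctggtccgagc
Ccnf: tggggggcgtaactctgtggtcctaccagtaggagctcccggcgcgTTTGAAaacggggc

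The order of the libraries within a group was not fixed by the rule. Among the 44 genes of cell division, 30 were highest in NICD2_Pax8 replicate 3, 14 in replicate 1 and 0 in replicate 2, and 29 were lowest in replicate 2. Over all 13500 genes tested, replicate 2 was the highest for 34.2% and the lowest for 31.9%. The spread was small in size: the summed FPKM of the 44 genes was 397.9, 346.9 and 410.4 in NICD2_Pax8 replicates 1 to 3. In WT it was 16.3, 30.1 and 15.7 in replicates 1 to 3, and 39 of the 44 were highest in WT replicate 2, where 27.9% of all genes tested were (ties count for the lower replicate number). The 49 other genes ran differently, with 31 highest in NICD2_Pax8 replicate 1 and 29 lowest in replicate 3. Genes follow each other within a library, so these counts are not independent, and no test was made of them.

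**Figure D4:**
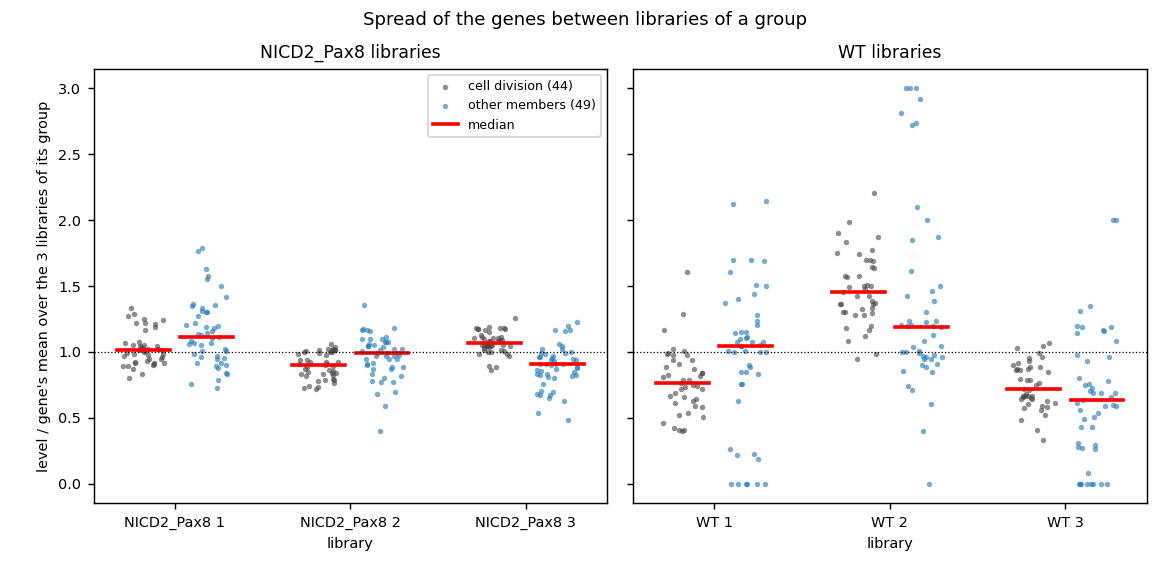
Each point is 1 gene in 1 library, as its level divided by the gene's mean over the 3 libraries of that group, with NICD2_Pax8 on the left and WT on the right and red bars at the medians. Genes of cell division (grey) sit lowest in NICD2_Pax8 replicate 2 and highest in WT replicate 2, and H2ac23, at 0 in WT, has no points there.

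Enzymes, receptors and secreted proteins of metabolism held the highest levels of the set. Hsd17b14, a dehydrogenase that acts on hydroxysteroids, was the most abundant of the 93 at 81.2, 81.6 and 79.2 FPKM in NICD2_Pax8, against 0.41, 0.78 and 0.78 FPKM in WT. Its NICD2_Pax8 libraries agreed to within 1.03 times. The span of its model overlaps that of Bcat2, which stood at 18.8, 26.7 and 18.3 FPKM in NICD2_Pax8 and 52.9, 32.4 and 33.5 FPKM in WT. Gpbar1, the cell surface bile acid receptor TGR5 known from gallbladder, bile ducts, brown fat and macrophages, stood at 61.1, 90.2 and 82.2 FPKM in NICD2_Pax8, against 0, 0.79 and 0.08 FPKM in WT. Its fold of mean FPKM was 268.3, on about 12.9 estimated WT fragments in all.

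Serpina10, a clotting inhibitor made by the liver, stood at 48.4, 45.1 and 59.4 FPKM in NICD2_Pax8 and at 0.37, 0.83 and 0.13 FPKM in WT. Gxylt2 adds xylose to the sugar that Notch receptors carry on their EGF repeats, and stood at 34.4, 34.7 and 27.6 FPKM in NICD2_Pax8, against 0.59, 0.66 and 0.35 FPKM in WT. Adamts16, a secreted metalloprotease of gonads and the developing kidney, stood at 31.9, 28.6 and 28.1 FPKM in NICD2_Pax8 and at 0.76, 0.98 and 0.52 FPKM in WT. All 3 genes kept a wide gap between the groups, with ratios of 115, 60.4 and 39.2. Cyp4f15, a fatty acid hydroxylase of liver, averaged 12.2 ± 1.73 FPKM in NICD2_Pax8 and 0.233 ± 0.229 FPKM in WT, and the acyltransferase-like Oacyl averaged 5.67 ± 0.216 FPKM in NICD2_Pax8 and 0.0433 ± 0.0404 FPKM in WT (SD, n = 3 each). In WT all 7 of these genes were highest, or tied for highest, in replicate 2.

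Proteins of other epithelia and glands were the most uneven between NICD2_Pax8 libraries, with a median ratio of 2.13 between the highest and the lowest, where the ratio over the 93 had a median of 1.32. Defb36, a defensin of the epididymis, was steady at 51.5, 63.6 and 48.2 FPKM in NICD2_Pax8, against 0.61, 0.41 and 0.20 FPKM in WT. Scgb3a2, a secretoglobin of airway club cells, was steady too, at 20.9, 26.3 and 24.4 FPKM in NICD2_Pax8 and 0.17, 0.34 and 0 FPKM in WT. Ivl, involucrin of the outer epidermis, stood at 37.2, 8.48 and 17.6 FPKM in NICD2_Pax8 and at 0.04, 0.42 and 0 FPKM in WT. It was the most uneven of the 93, with 4.39 times more in replicate 1 than in replicate 2. S100a14, a calcium-binding protein of skin and gut epithelium, stood at 54.1, 23.1 and 22.5 FPKM in NICD2_Pax8, against 0.07, 0.50 and 0.36 FPKM in WT.

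Krt17, a keratin of hair follicles and wounded skin, stood at 26.6, 20.6 and 9.08 FPKM in NICD2_Pax8, against 0, 0.19 and 0 FPKM in WT. Krt79, a keratin of hair follicle and sebaceous ducts, stood at 5.30, 7.84 and 8.70 FPKM in NICD2_Pax8 and at 0.22, 0.13 and 0.04 FPKM in WT, so the keratins took opposite orders over the NICD2_Pax8 libraries. Gabrp, a GABA receptor subunit of uterus, mammary gland and lung, stood at 30, 14.6 and 12.3 FPKM in NICD2_Pax8 and at 0.02, 0.30 and 0 FPKM in WT. Reg1, a secreted lectin of the exocrine pancreas, stood at 20.03, 10.7 and 16.5 FPKM in NICD2_Pax8, against 0, 0.11 and 0 FPKM in WT. Nectin4, an adhesion protein of skin and placenta, averaged 9.08 ± 2.79 FPKM in NICD2_Pax8 and 0.563 ± 0.132 FPKM in WT (SD, n = 3 each). Clca3a2, of a family of secreted calcium-activated chloride channel regulators, stood at 31.2, 10.3 and 10.9 FPKM in NICD2_Pax8 and at 0, 0.76 and 0.02 FPKM in WT. Its model overlaps the related Clca3a1, at 15.7, 7.1 and 11.5 FPKM in NICD2_Pax8 and 4.64, 7.28 and 6.57 FPKM in WT, so the split of reads between the pair is uncertain.

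Most other markers of airway and stratified epithelium were low, while those of urothelium were mixed. Of 9 airway secretory markers with values, 7 were under 1 FPKM in all 6 libraries, among them Scgb1a1, the defining club cell protein, at 0, 0.18 and 0.17 FPKM in NICD2_Pax8 and 0 in WT. Both tested markers were higher in NICD2_Pax8, Scgb3a2 of the set and Cyp2f2. Cyp2f2, a club cell cytochrome, stood at 313.9, 636 and 694.7 FPKM in NICD2_Pax8 and 2.79, 5.53 and 3.39 FPKM in WT. The list summed to 335.6 to 720.3 FPKM in NICD2_Pax8 and 2.98 to 6.6 FPKM in WT. Of 14 markers of stratified epithelium, 7 were under 1 FPKM in all libraries, among them the basal cell factor Trp63, the basal keratin Krt14 reached at most 1.08 FPKM, and 3 of the 5 tested were higher, Ivl, Krt17 and Sfn, of which Ivl and Krt17 belong to the set. The list summed to 131.6 to 257.6 FPKM in NICD2_Pax8 and 4.02 to 26.5 FPKM in WT, with WT replicate 2 at the top through Sprr1a at 16.95 FPKM. Of 12 urothelial markers only 1 was under 1 FPKM in all libraries. Of 11 tested, 5 were higher and 0 lower, a share near the 45.1% of all genes tested that were higher. Without WT replicate 2, 8 were higher, and the stratified count moved to 5 of 5. Among those higher, Upk1a stood at 37.5, 36.9 and 36.6 FPKM in NICD2_Pax8 and 1.16, 4.56 and 0.73 FPKM in WT. The other uroplakins listed, Upk1b, Upk2, Upk3a and Upk3b, were not called. The urothelial list summed to 150.8 to 216.9 FPKM in NICD2_Pax8 and 70.6 to 118.6 FPKM in WT, and its part in the levels of these genes was not tested.

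Immune and inflammatory genes included chemokines and genes of epithelial defence as well as genes of blood cells. Ubd, a ubiquitin-like protein of lymphoid tissue that inflammatory cytokines induce, stood at 50.1, 35.4 and 42 FPKM in NICD2_Pax8, against 0.68, 0.68 and 0.33 FPKM in WT. Il4i1, an amino acid oxidase of antigen-presenting cells, stood at 35.6, 37.2 and 27.6 FPKM in NICD2_Pax8 and at 0.39, 0.35 and 0.35 FPKM in WT. In GENCODE M21, 83.9% of its exon bases lie in Tbc1d17 on the other strand, which stood at 13 to 17.2 FPKM in NICD2_Pax8 and 13.2 to 15.1 FPKM in WT. On the same strand, 2.38% lie in Nup62. The model of Il4i1 also overlaps that of Il4i1b on the same strand, so how reads were shared between Il4i1 and Il4i1b is uncertain. The neutrophil attractant Cxcl1 stood at 42.4, 21 and 18.4 FPKM in NICD2_Pax8 and at 0.66, 0.91 and 0.40 FPKM in WT. Ccl20, a chemokine of mucosal epithelium, stood at 19.5, 12.6 and 6.95 FPKM in NICD2_Pax8 and at 0, 0.10 and 0 FPKM in WT. Both chemokines were highest in NICD2_Pax8 replicate 1 and lowest in replicate 3, as were Cd276, Il1rn and Trem2 of this group.

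Il1rn, the antagonist of interleukin 1 made by skin and myeloid cells, stood at 10.9, 8.55 and 5.64 FPKM in NICD2_Pax8 and at 0.15, 0.06 and 0 FPKM in WT. Cd276, a B7 family member found on many cell types, averaged 11.2 ± 2.16 FPKM in NICD2_Pax8 and 0.563 ± 0.264 FPKM in WT (SD, n = 3 each). Both kept their groups apart, as the rule requires, and their highest NICD2_Pax8 values were 1.41 (Cd276) and 1.92 (Il1rn) times the lowest. Madcam1, the address protein of venules in the gut and its lymphoid tissue, stood at 7.75, 12.5 and 7.41 FPKM in NICD2_Pax8, against 0.08, 0.05 and 0.08 FPKM in WT, and was highest in NICD2_Pax8 replicate 2. AA467197, whose human counterpart is known from the mucosa of the oesophagus, averaged 7.09 ± 1.21 FPKM in NICD2_Pax8 and 0.13 ± 0.13 FPKM in WT (SD, n = 3 each).

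Trem2 and Fgr are genes of myeloid cells. Trem2, a lipid receptor of macrophages and microglia, stood at 7.55, 7.48 and 6.44 FPKM in NICD2_Pax8, against 0.64, 0.28 and 0.21 FPKM in WT. Fgr, a Src family kinase of myeloid cells, stood at 6.21, 7.08 and 6.05 FPKM in NICD2_Pax8 and at 0.56, 0.61 and 0.36 FPKM in WT. A list of 9 macrophage markers, Trem2 among them, summed to 214 to 238.5 FPKM in NICD2_Pax8 and 55.1 to 113.8 FPKM in WT. Of 8 tested, 6 including Trem2 were higher and 0 lower by limma at an adjusted p under 0.05. Of all genes tested, 45.1% were higher. Csf1r, which defines the lineage, had 13.8, 20.4 and 17.9 FPKM in NICD2_Pax8 and 11.5, 20.6 and 17.3 FPKM in WT and was not called (limma adjusted p = 0.751). Markers of T and NK cells summed to 17.8 to 23.3 FPKM in NICD2_Pax8 and 7.46 to 10.5 FPKM in WT, and those of neutrophils to 5.99 to 15.4 FPKM in NICD2_Pax8 and 2.37 to 3.73 FPKM in WT. Those of B and plasma cells summed to 4.07 to 5.45 FPKM in NICD2_Pax8 and 4.81 to 5.91 FPKM in WT. Of 4 T and NK genes tested 2 were higher, Cd8a and Lck, and 0 lower, while Nkg7 and Gzma were not called. Cd8a averaged 8.32 FPKM in NICD2_Pax8 and 0.98 FPKM in WT, and Cd3e averaged 0.977 and 0.453 FPKM. Of 3 neutrophil genes tested 2 were higher and 0 lower, and of 2 B and plasma cell genes 1 was higher and 1 lower. The part of these cells in the levels of the immune genes was not tested.

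Genes best known from neurons or endocrine cells made up 10 of the 93. Efna3, an ephrin that guides axons, stood at 62.1, 54.9 and 51.1 FPKM in NICD2_Pax8, against 0.52, 0.85 and 0.37 FPKM in WT, and was the most abundant. Trim46, which organises microtubules at the base of the axon, had the tightest NICD2_Pax8 values of the set, at 8.06, 7.98 and 8.02 FPKM, against 0.82, 0.55 and 0.34 FPKM in WT. Efna3 and Trim46 lie 67535 bases apart on chromosome 3 with 3 rows between them, the only pair of the set within 100000 bases. Abcc8, the sulfonylurea receptor of pancreatic beta cells, stood at 15.7, 10.2 and 8.67 FPKM in NICD2_Pax8 and at 0.14, 0.13 and 0.13 FPKM in WT.

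The glutamate receptor family member Grid1 stood at 9.67, 13.7 and 14.9 FPKM in NICD2_Pax8 and at 0.44, 0.63 and 0.68 FPKM in WT. Ntm, an adhesion protein of neurons, stood at 6.10, 6.93 and 8.98 FPKM in NICD2_Pax8 and at 0.15, 0.17 and 0.21 FPKM in WT. Both were lowest in NICD2_Pax8 replicate 1, unlike Abcc8 and the small GTPase Rnd1, which were highest there. Rnd1 stood at 15.2, 11 and 7.86 FPKM in NICD2_Pax8, against 0.60, 0.33 and 0.19 FPKM in WT. Slc8a2, a sodium-calcium exchanger of brain, averaged 10.5 ± 1.66 FPKM in NICD2_Pax8 and 0.297 ± 0.293 FPKM in WT (SD, n = 3 each). The palmitoyltransferase Zdhhc15, Tmem132e and protocadherin Pcdh8 averaged 9.92, 8.3 and 7.5 FPKM in NICD2_Pax8 and 0.553, 0.0767 and 0.05 FPKM in WT. Of 12 general neuron markers 5 were under 1 FPKM in all libraries, and of the 2 tested 0 were called in either direction. They summed to 10.2 to 11.2 FPKM in NICD2_Pax8 and 5.1 to 609.7 FPKM in WT. At the top was WT replicate 1, the library with the adrenal markers, mostly through Chga at 552.2 FPKM there.

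Of the other 8 genes with GTGGGAA, Trim46 and Cdca7 are printed as examples, with the letters or their reverse complement in capitals. The copies begin 66 and 52 bases before the start in Trim46 and 227 bases before it in Cdca7. The genes not printed are Cyp4f15 (2 bases before the start), Bcl2l14 (62 and 246), Tnfrsf23 (121), Sgo1 (174), Il1rn (199) and Brca1 (224). For Trim46, in 1 of its 3 RefSeq promoters, the copies stand on opposite strands within the 150 bases chr3:89245898-89246047 (GRCm38.p6, minus strand). For Cdca7 the stretch is chr2:72475969-72476048 on the plus strand.
Trim46: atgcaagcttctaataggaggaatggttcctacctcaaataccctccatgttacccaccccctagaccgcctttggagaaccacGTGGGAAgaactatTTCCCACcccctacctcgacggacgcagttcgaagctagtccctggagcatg
Cdca7: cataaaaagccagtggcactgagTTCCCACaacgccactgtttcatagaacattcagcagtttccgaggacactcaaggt

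The remaining 7 genes share no tissue. Fam167a, of unknown function, stood at 57.7, 57.1 and 47.5 FPKM in NICD2_Pax8, against 0.37, 0.37 and 0.16 FPKM in WT. Rassf10, of a family that binds Ras-like proteins, stood at 45.1, 37.8 and 31.2 FPKM in NICD2_Pax8 and at 0.53, 0.62 and 0.65 FPKM in WT. Eda2r, a TNF receptor family member that p53 induces, stood at 7.27, 5.81 and 6.04 FPKM in NICD2_Pax8 and at 0.15, 0.21 and 0.06 FPKM in WT. Tnfrsf23, a mouse decoy receptor for the death ligand TRAIL, averaged 9.19 ± 1.09 FPKM in NICD2_Pax8 and 0.66 ± 0.13 FPKM in WT (SD, n = 3 each). Prr5l, a partner of the mTORC2 kinase complex, and Bcl2l14, of the Bcl2 family, had ratios of means of 9.8 and 9.89. Mns1, a protein of sperm flagella and meiotic cells, averaged 6.3 FPKM in NICD2_Pax8 and 0.513 FPKM in WT, and 53% of its exon bases lie in Tex9 on the other strand, at 5.59, 3.6 and 3.65 FPKM in NICD2_Pax8 and 2.22, 2.65 and 2.29 FPKM in WT.

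**Figure D5:**
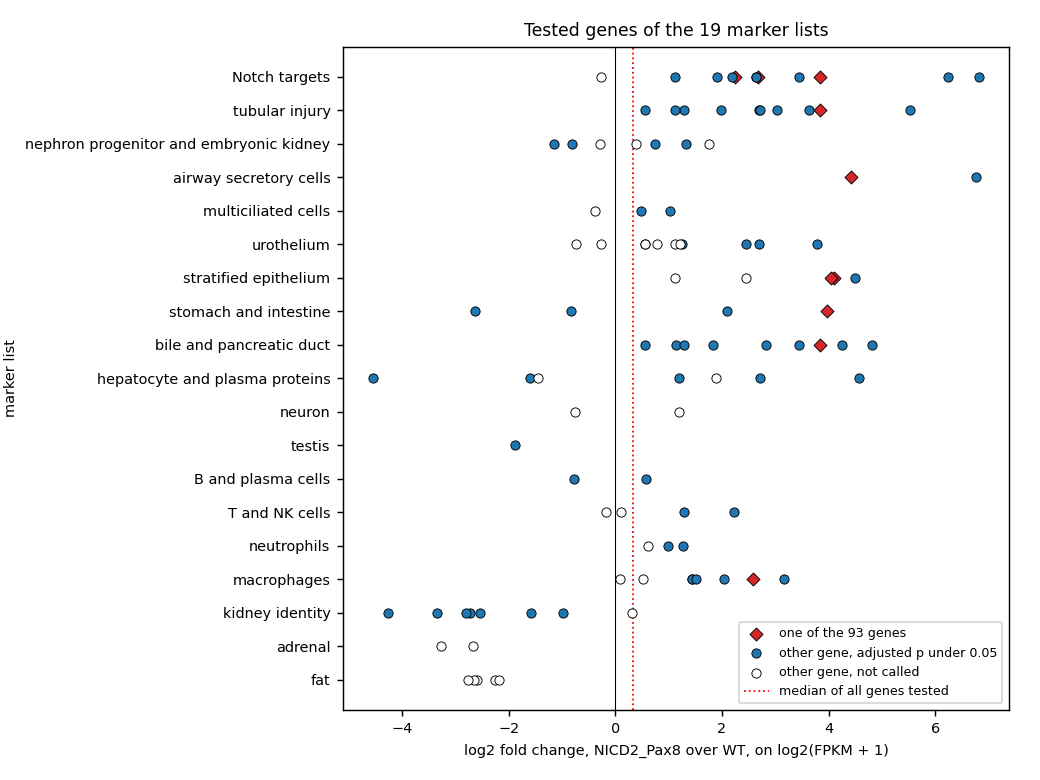
Each point is a tested gene of a marker list, with its log2 fold change (NICD2_Pax8 over WT, on log2(FPKM + 1)) on the horizontal axis and the list on the vertical axis, and genes of the set are marked. Notch targets, tubular injury and duct markers lie to the right of 0, except 1 Notch target that was not called, and kidney identity lies mostly to the left.

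Lists of related genes placed the set in the wider change. Of 12 Notch targets tested, 11 were higher and 0 lower in NICD2_Pax8, with a median log2 fold change of 2.64, and the set holds Hes5, Hey2 and Sox9 of them. All 10 tubular injury genes and all 9 bile and pancreatic duct genes tested were higher (medians 2.70 and 2.83). Both counts include Sox9 of the set. Krt7, a keratin in both lists, was near the threshold (limma adjusted p = 0.0455), and the counts were 9 of 10 and 8 of 9 under both other scalings, with the replicate block, with no filter, at an adjusted p under 0.01 and without each library in turn except NICD2_Pax8 replicate 3. Of 8 kidney identity genes 7 were lower (median -2.63). Of 7 nephron progenitor genes 2 were higher and 2 lower (median 0.40), and of 7 hepatocyte genes 3 were higher and 2 lower (median 1.20). Of 4 stomach and intestine genes 2 were higher, Reg1 of the set among them, and 2 lower (median 0.63). Against these stand the shares of all genes given above, 45.1% higher and 16.2% lower, and the overall median of 0.32.

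The limits of the rule fell within a continuum. Just inside 5 FPKM, the lowest NICD2_Pax8 value was 5.09 for Chek1, 5.1 for Bcl2l14 and 5.15 for Stil, and just outside it was 4.98 for Eme1 and 4.97 for Nmnat2 and Cenpi. Just inside 1 FPKM, the highest WT value was 0.98 for Ccne1, Adamts16 and Ndc80. Just outside it stood Galnt12 and Ankrd6, and Ankrd6 had 48.1, 43.9 and 54.6 FPKM in NICD2_Pax8 and a highest WT value of 1. Single libraries kept other genes out: 46 failed only in WT replicate 2, 27 only in WT replicate 1, 2 only in WT replicate 3, and 14, 21 and 5 only in NICD2_Pax8 replicates 1, 2 and 3. Those kept out by WT replicate 2 include the mitotic regulators Foxm1, Cdk1 and Ccnb1, and those kept out by WT replicate 1 include the Notch targets Hey1 and Dtx1.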

How the data were processed

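The authors deposited 1 table with FPKM per library. It also holds the authors' log2 fold change and q-value for the groups, which per the file headers come from DESeq2. Bowtie 0.12.2 and the build mm8 are listed, per the submitters' processing notes, but 88.2% of 22002 rows matched to RefSeq GRCm38 had its start and end, so positions were read as GRCm38. The counting tool is not given in the sources used here.

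The 4370 rows without values were left out. Since the table held no counts, limma 3.58.1 with a trend (R 4.3.3) was run on log2(FPKM + 1) over the 13500 genes that reached 1 FPKM in 3 libraries or more, two-sided, with Benjamini-Hochberg adjustment. Its script was tested on simulated data. Depth was estimated from the steps of low FPKM values, of which 71.2% to 78.4% lay within 0.15 of a whole fragment, and bears on precision only. Promoters are those of RefSeq. The set and the 19 marker lists were chosen with earlier results of these data known. Any gene of the set could be named, except 1 that is counted but not reported here; 25 were followed through the alternatives, by a rule that took the 12 most abundant in NICD2_Pax8, the 3 most abundant of each role, the transcription factors and any gene at 0 in all WT libraries. The E2F and CHR letters and the roles were chosen after the genes were known. Alternatives were other pseudocounts, filters, scalings, limits of the rule, a replicate block and leaving out each library.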

Additional observations from a re-analysis of the deposited data

Results flagged for a closer look

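The predicted gene Gm38523, which the rule on names left out of the set, passed its FPKM limits, with 20.8, 26.9 and 25.1 FPKM in NICD2_Pax8 libraries (mean 24.3) and 0 in all WT libraries. It lies 4336 bases from Clec18a on the same strand of chromosome 8, and Clec18a, kept out of the set by 1 WT library, had 154, 195.3 and 207.3 FPKM in NICD2_Pax8 and 0.49, 1.34 and 0.31 FPKM in WT.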

How the results depend on the processing

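Under median-of-ratios scaling and quantile normalization, 3725 and 3866 genes were higher and 3642 and 3558 lower, where the reported fit gave 6095 and 2190; the cause was not tested. The set held 28 genes with a WT limit of 0.5 FPKM and 217 with 2 FPKM, 254 with a NICD2_Pax8 limit of 2 FPKM and 25 with 10 FPKM, and 67 under median-of-ratios scaling. Leaving out 1 library left 95 to 139 genes, the most without WT replicate 2. This can only relax the rule, so all 93 were kept by construction. Genes called ranged over these fits from 5156 to 6661 higher and 1826 to 2276 lower. All 93 stayed higher under all settings run, which is no separate support, since the rule chose them on these same values. Their sizes were less stable. With pseudocounts of 0.1 and 5, the log2 fold changes of all 25 genes followed moved by at least the larger of their 2 within-group SDs. Under median-of-ratios scaling 16 of the 25 moved that far and 9 did not. With the replicate block, or without any 1 library, all 25 stayed within that SD. With the replicate number as a block, 5818 genes were higher and 2164 lower. Deviations of genes from their group means correlated at 0.095, -0.050 and 0.0056 between same-numbered libraries. These values show no pairing by number but cannot exclude it, because deviations from a mean of 3 libraries are not independent. Among lists, alternatives chosen after seeing the data gave 1 higher gene for nephron progenitor, multiciliated and neutrophil lists and 0 for B and plasma cells under both scalings, 1 lower fat gene under median-of-ratios scaling and 1 lower urothelial gene under quantile normalization. Without WT replicates 1 and 2 in turn, the higher counts ran from 4 to 8 for urothelium, 3 to 5 for stratified epithelium, 1 to 2 for multiciliated cells and neutrophils and 0 to 1 for neurons, and the lower counts from 0 to 1 for Notch targets and adrenal. Without WT replicate 3, 5 of 5 tested fat genes were lower (median log2 fold change -3.82), against 0 in the reported fit. Depth limits WT levels: 3 genes of the set rested on under 3 estimated fragments there.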
